A study of Mus musculus with 3 samples.

Results

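The genes described here carry the bone morphogenetic protein (BMP) signal from the cell surface to the nucleus. They are 10 of the 23284 gene symbols in the deposited files, chosen by name, and all 10 have a row in each of the 3 files. They comprise the type I receptors Bmpr1a, Bmpr1b and Acvr1, the type II receptor Bmpr2, the receptor-activated Smads Smad1, Smad5 and Smad9, and the inhibitors Smad6, Smad7 and Bambi. RNA was read in 3 libraries of cells sorted by a GFP reporter from mouse embryo digits, with 1 library for each population and all mice labelled C57/bl6. The Lgr5+ library held GFP-positive cells, labelled interzone, of Lgr5-eGFPCreERT2/+ forelimb digits at E14.5 (E for embryonic day). The Lgr5- library held the GFP-negative cells of the same genotype, tissue and day, labelled non-interzone. The Sox9+ library held GFP-positive digit cells of Sox9-eGFP/+ embryos at E13.5. The sort follows the reporter of Lgr5, an R-spondin receptor, or of Sox9, the chondrocyte transcription factor, and not position in the digit. All cells carried a reporter allele in the heterozygous state, no reporter-free control was analysed here, and the sources used here do not give the number of animals per library or the limb of the Sox9+ digits.

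BMP ligands bind a complex of type I and type II receptors, which are serine and threonine kinases. The type II receptor phosphorylates the type I receptor, which then phosphorylates Smad1, Smad5 and Smad9, and these enter the nucleus with Smad4. BMP signalling drives the condensation and growth of digit cartilage. Gdf5, a BMP-family ligand of the interzone, the band of cells where a joint will form, signals chiefly through Bmpr1b, and mice that lack Bmpr1b have short digits.

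The sorting genes were read first. Lgr5 stood at 26.8 FPKM in Lgr5+ cells, 1.36 FPKM in Lgr5- cells and 3.48 FPKM in Sox9+ cells. FPKM count fragments relative to a transcript's length and to all mapped fragments. Sox9 was at 332 FPKM in Lgr5+ cells, 147.1 FPKM in Lgr5- cells and 254.7 FPKM in Sox9+ cells, so its RNA peaked outside the Sox9-sorted cells. Of 11 interzone markers, 9 were 2-fold or more higher in Lgr5+ than in Lgr5- cells and none 2-fold lower. The summed level of 7 muscle markers was 97.2 FPKM in Lgr5+ cells, 24.8 FPKM in Lgr5- cells and 16.6 FPKM in Sox9+ cells, and none of the 7 was listed at 0. Globin genes took 0.036% of the summed FPKM of Lgr5+ cells, 1.01% of that of Lgr5- cells and 0.029% of that of Sox9+ cells. The ribosomal RNA entry Rn45s took 1.86% of that sum in Lgr5+ cells, 6.13% in Lgr5- cells and 6.43% in Sox9+ cells. FPKM summed to between 534025 and 593871 per library. The files give no counts, so depth is unknown and no counting interval can be given. In sorted cells read in bulk, fewer cells of a type and less RNA per cell cannot be told apart.

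The promoters of Smad1, Smad9 and Smad6 are shown because Smad1 and Smad9 had the widest differences among the members and Smad6 is a gene that BMP signalling itself induces. RefSeq promoter sequences (build GRCm38.p6) matched 8 of the 10 members, and they run here from 250 bases before to 30 bases after the transcript start, written 5′ to 3′ on the gene's strand. Capitals mark the searched motifs: GTCTAGAC, a palindrome that Smad proteins bind, and GGCGCC and GGAGCC, GC-rich letters found in BMP-responsive elements, with GGAGCC sought on both strands (GGCTCC on the other) and the others equal to their own reverse complement.
Smad1, chr8:79399399-79399678, minus strand: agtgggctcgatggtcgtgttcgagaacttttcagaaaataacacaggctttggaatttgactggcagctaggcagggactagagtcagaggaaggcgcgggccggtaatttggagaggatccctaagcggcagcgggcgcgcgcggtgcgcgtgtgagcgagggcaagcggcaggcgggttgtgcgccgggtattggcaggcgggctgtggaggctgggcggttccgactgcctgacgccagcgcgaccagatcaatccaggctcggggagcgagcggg
Smad9, chr3:54755332-54755611, plus strand: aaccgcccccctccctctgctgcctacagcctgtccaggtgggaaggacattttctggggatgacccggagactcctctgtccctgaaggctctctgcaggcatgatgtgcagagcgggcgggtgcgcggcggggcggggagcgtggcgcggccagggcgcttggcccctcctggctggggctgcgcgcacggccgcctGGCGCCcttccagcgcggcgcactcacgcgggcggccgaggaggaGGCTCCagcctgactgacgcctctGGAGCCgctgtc
Smad6, chr9:64022030-64022309, minus strand: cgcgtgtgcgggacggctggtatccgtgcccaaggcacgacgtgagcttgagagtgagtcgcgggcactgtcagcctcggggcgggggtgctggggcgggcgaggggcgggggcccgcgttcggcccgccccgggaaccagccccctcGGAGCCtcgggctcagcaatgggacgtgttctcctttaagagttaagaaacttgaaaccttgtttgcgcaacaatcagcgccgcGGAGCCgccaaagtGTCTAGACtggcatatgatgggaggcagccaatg
The Smad6 window held GTCTAGAC across its start, from base -4 to base 4, where base 1 is the first transcribed base and base -1 the one before it. Of 32851 RefSeq mouse promoters of 300 bases, 70 held that palindrome, or 0.213%, and no other member with a sequence did. Smad6 also held GGAGCC at 2 places, from base -102 to -97 and from base -18 to -13. The Smad9 window held GGCGCC from base -51 to -46 and GGAGCC at 2 places, and the Smad1 window held none of the 3 motifs. In the 300-base windows, GGCGCC occurred for 4 of the 8 members and in 11.9% of all promoters, and GGAGCC for 5 of the 8 members and in 30.9% of all promoters. Some members have several windows. A match is a run of letters and was not tested for binding.

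Levels are given for every library. Folds compare FPKM + 1 between libraries, and the added 1 shrinks the folds of weakly expressed genes. A gene was taken as measured in a pair when either library reached 1 FPKM, and as different from 2-fold upward. No group has a replicate, so no difference has a replicate check, no error or p-value can be given, and no neighbours in the order of levels can be said to differ beyond a spread. Between the Lgr5+ and Lgr5- libraries, 9 members were measured and 0 were 2-fold different, against 5.53% of all 12438 measured genes (3.64% higher and 1.89% lower). Between the Lgr5+ and Sox9+ libraries, 2 of 10 members were 2-fold different, against 8.29% of 12492 genes. They were Smad1, higher in the Lgr5+ library (4.33% of genes were), and Smad9, lower there (3.96% of genes were). Between the Lgr5- and Sox9+ libraries, 0 of 10 were, against 8.02% of 12482 genes (3.08% higher and 4.94% lower). Most members thus differed by less than 2-fold in each pair, as most measured genes did.

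**Figure D1:**
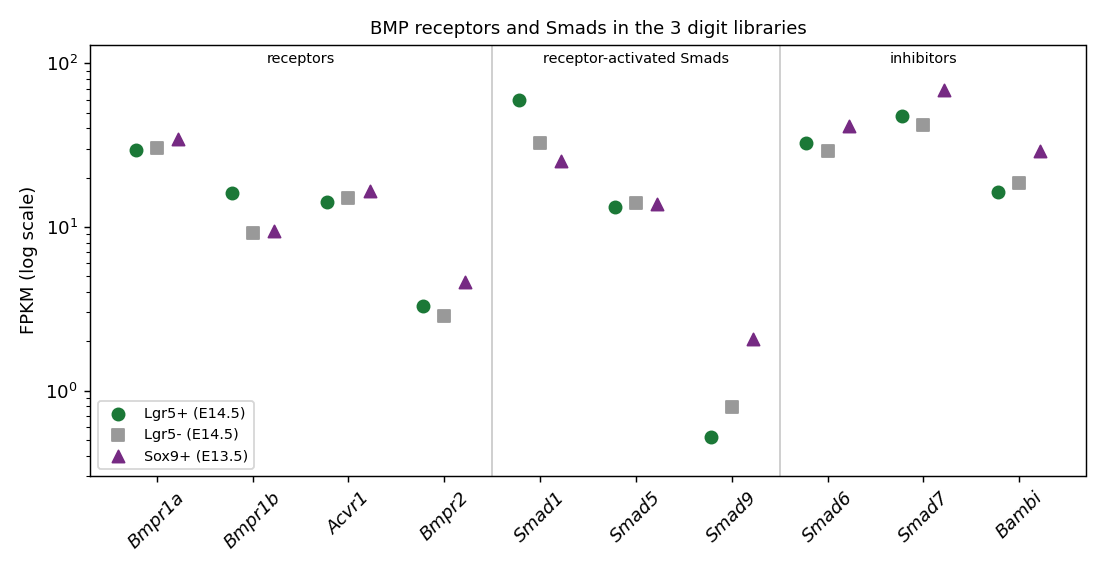
Level in FPKM, on a log axis, of each BMP receptor and Smad gene in the Lgr5+, Lgr5- and Sox9+ libraries, with 1 point per library and no error bars because each group is 1 library. Smad1 and Bmpr1b are highest in the Lgr5+ library, whereas Smad6, Smad7, Bambi and Smad9 are highest in the Sox9+ library.

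Among the type I receptors, Bmpr1b was the one with an uneven level. Bmpr1b (GRCm38 chromosome 3, 141837136 to 142169425, minus strand), the receptor through which Gdf5 chiefly acts, stood at 16.2 FPKM in Lgr5+ cells, 9.12 FPKM in Lgr5- cells and 9.43 FPKM in Sox9+ cells. It was 1.70-fold higher in the Lgr5+ than in the Lgr5- library and 1.65-fold higher than in the Sox9+ library, on the FPKM + 1 scale. Of all measured genes, 5.72% were at least as much higher in the first comparison and 8.78% in the second. The Lgr5- and Sox9+ libraries differed by 1.03-fold at Bmpr1b, with a direction that turned under 3 of the other scalings. Gdf5, its ligand, stood at 614.8 FPKM in Lgr5+ cells, 71.7 FPKM in Lgr5- cells and 59.9 FPKM in Sox9+ cells, so both genes were highest in the same library.

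Bmpr1a (chromosome 14, 34410734 to 34503341, minus strand), the broadly expressed type I receptor, stood at 29.6 FPKM in Lgr5+ cells, 30.5 FPKM in Lgr5- cells and 34.3 FPKM in Sox9+ cells. An antisense gene, Gm17110, overlaps its exons, and the library kit is not stated to mark the strand. Acvr1 (chromosome 2, 58388644 to 58567157, minus strand), the type I receptor mutated in a human disease of heterotopic bone, stood at 14.3 FPKM in Lgr5+ cells, 15 FPKM in Lgr5- cells and 16.7 FPKM in Sox9+ cells. The highest level was 1.16 times the lowest for Bmpr1a and 1.17 times for Acvr1, and both genes were highest in the Sox9+ library. Within each library Bmpr1a had the highest FPKM of the type I receptors. Orders and shares of different genes, here and below, rest on the transcript lengths used for FPKM, and the annotation behind them is not given.

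Bmpr1b made up 27% of the summed FPKM of the type I receptors in Lgr5+ cells, 16.7% in Lgr5- cells and 15.6% in Sox9+ cells. Bmpr1a made up 49.3%, 55.9% and 56.8% of that sum in the Lgr5+, Lgr5- and Sox9+ libraries. The sum itself was 60.1 FPKM in Lgr5+ cells, 54.6 FPKM in Lgr5- cells and 60.4 FPKM in Sox9+ cells, so the share of Bmpr1b differed more than the total did. Bmpr1b was 0.547 times as abundant as Bmpr1a in Lgr5+ cells, 0.299 times in Lgr5- cells and 0.275 times in Sox9+ cells. These shares and ratios are taken within a library, so a scaling factor per library leaves them as they are.

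Bmpr2 (chromosome 1, 59763400 to 59879014, plus strand), the type II receptor dedicated to BMP ligands, was the lowest of the receptors among the members. It stood at 3.29 FPKM in Lgr5+ cells, 2.87 FPKM in Lgr5- cells and 4.61 FPKM in Sox9+ cells. It was 1.31-fold lower in the Lgr5+ and 1.45-fold lower in the Lgr5- library than in the Sox9+ library, and both comparisons share the Sox9+ library. Acvr2b, a type II receptor shared with activins, was more abundant than Bmpr2, at 22.1 FPKM in Lgr5+ cells, 19.97 FPKM in Lgr5- cells and 20.9 FPKM in Sox9+ cells. Acvr2a, its relative, stood at 5.99 FPKM in Lgr5+ cells, 8.01 FPKM in Lgr5- cells and 5.7 FPKM in Sox9+ cells. In each library the order of these type II receptors was Acvr2b, then Acvr2a, then Bmpr2.

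**Figure D2:**
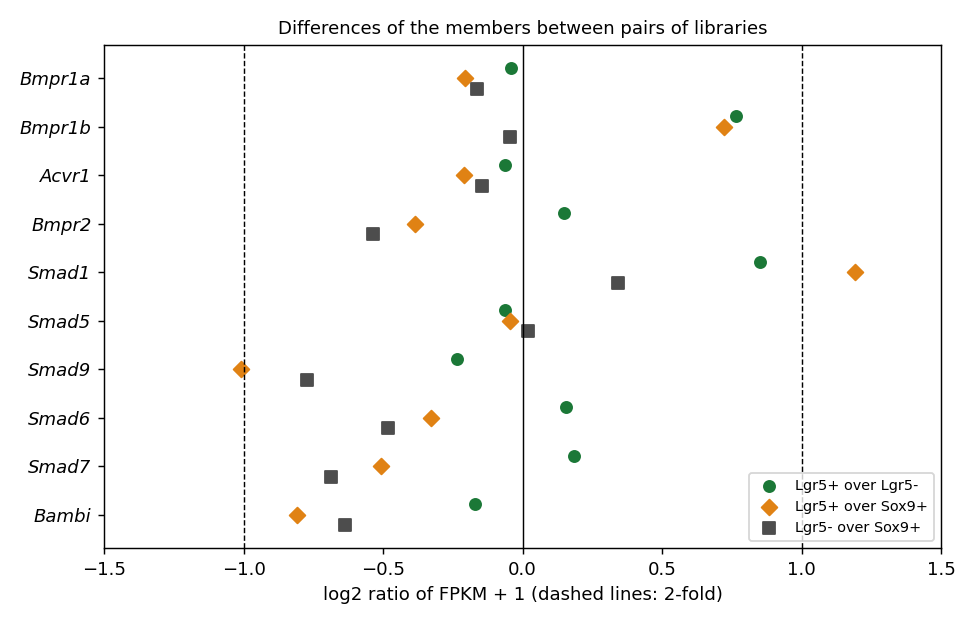
Log2 ratio of FPKM + 1 of each gene in the 3 pairs of libraries, where positive values mean higher in the library named first and dashed lines mark 2-fold. Smad1 in Lgr5+ over Sox9+ (1.19) and Smad9 in the same pair (-1.01) are the only points at or past a dashed line.

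Smad1 was highest in the Lgr5+ library. Smad1 (chromosome 8, 79338395 to 79399518, minus strand), which receptors activate at its carboxy terminus, stood at 59.3 FPKM in Lgr5+ cells, 32.4 FPKM in Lgr5- cells and 25.4 FPKM in Sox9+ cells. It was 1.80-fold higher in the Lgr5+ than in the Lgr5- library, a difference that 4.95% of measured genes reached in that direction. It was 2.29-fold higher in the Lgr5+ than in the Sox9+ library, which 2.83% of measured genes reached. The Lgr5- library lay between, at 1.27-fold above the Sox9+ library. On the log2 scale of FPKM + 1 the range of Smad1, 1.19, was the widest of the members, ahead of 1.01 for Smad9, whereas in plain FPKM the highest level was 2.34 times the lowest for Smad1 and 3.96 times for Smad9. The Lgr5+ excess kept its direction under the 7 alternatives that change the ratio, with log2 ratios of 0.69 to 0.89 over the Lgr5- library and 1.09 to 1.36 over the Sox9+ library.

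Smad5 (chromosome 13, 56703010 to 56742377, plus strand), a close relative of Smad1 that acts alongside it, was nearly level, at 13.3 FPKM in Lgr5+ cells, 13.9 FPKM in Lgr5- cells and 13.8 FPKM in Sox9+ cells. Its highest value was 1.05 times its lowest, and its direction between the Lgr5+ and Sox9+ libraries turned under 2 other scalings. Smad9 (chromosome 3, 54755582 to 54801257, plus strand), also called Smad8, was low throughout, at 0.52 FPKM in Lgr5+ cells, 0.79 FPKM in Lgr5- cells and 2.06 FPKM in Sox9+ cells. Only the Sox9+ library was above 1 FPKM, so Smad9 was not measured between the Lgr5+ and Lgr5- libraries. It was 2.01-fold lower in the Lgr5+ than in the Sox9+ library, just past the threshold, and that call ended when the sum without ribosomal RNA and globins was used for scaling, at a log2 ratio of -0.96.

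Smad1 made up 81.1% of the summed FPKM of the receptor-activated Smads in Lgr5+ cells, 68.8% in Lgr5- cells and 61.6% in Sox9+ cells. Smad5 made up 18.2% in Lgr5+ cells, 29.6% in Lgr5- cells and 33.4% in Sox9+ cells. The sum was 73.1 FPKM in Lgr5+ cells, 47.2 FPKM in Lgr5- cells and 41.2 FPKM in Sox9+ cells, and its differences followed those of Smad1. Smad4, the partner that all receptor-activated Smads share, stood at 44.9 FPKM in Lgr5+ cells, 43.2 FPKM in Lgr5- cells and 39.2 FPKM in Sox9+ cells. Smad4 thus differed by at most 1.14-fold between any pair.

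Among 9276 genes of at least 5 FPKM in their highest library, the 3 whose log2 levels were nearest to those of Smad1, centred on the gene's mean over the 3 libraries, were Ifi27l1, Cmtm8 and Smtnl2. Ifi27l1 stood at 28.3 FPKM in Lgr5+ cells, 15.3 FPKM in Lgr5- cells and 11.5 FPKM in Sox9+ cells, at a Euclidean distance of 0.035. The distances were 0.051 for Cmtm8 and 0.054 for Smtnl2, and 17 genes lay within 0.1. With 3 libraries, such likeness rests on 3 values per gene.

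The inhibitors were all highest in the Sox9+ library, and none differed by 2-fold in any pair. Smad6 (chromosome 9, 63953076 to 64022059, minus strand), an inhibitory Smad that acts mainly on BMP signals, stood at 32.7 FPKM in Lgr5+ cells, 29.2 FPKM in Lgr5- cells and 41.3 FPKM in Sox9+ cells. It was 1.25-fold lower in the Lgr5+ and 1.40-fold lower in the Lgr5- library than in the Sox9+ library. Between the Lgr5+ and Lgr5- libraries it differed by 1.11-fold, with no direction kept under upper-quartile scaling.

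Smad7 (chromosome 18, 75367529 to 75395935, plus strand), an inhibitory Smad of both BMP and TGF-beta signals, was the most abundant inhibitor in each library. It stood at 47.9 FPKM in Lgr5+ cells, 42.1 FPKM in Lgr5- cells and 68.4 FPKM in Sox9+ cells. That was 1.42-fold lower in the Lgr5+ and 1.61-fold lower in the Lgr5- library than in the Sox9+ library. Bambi (chromosome 18, 3507923 to 3516404, plus strand), a receptor-like protein without a kinase that blocks receptor complexes, stood at 16.3 FPKM in Lgr5+ cells, 18.5 FPKM in Lgr5- cells and 29.3 FPKM in Sox9+ cells. It was 1.75-fold lower in the Lgr5+ and 1.55-fold lower in the Lgr5- library than in the Sox9+ library, and 5.85% and 11.2% of measured genes were at least as low in those comparisons. The pseudogene Bambi-ps1, which by its name is a copy of Bambi, was listed at 2.42 FPKM in Lgr5+ cells, 1.49 FPKM in Lgr5- cells and 2.23 FPKM in Sox9+ cells, and reads of such a copy may be split uncertainly.

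The inhibitors summed to 96.9 FPKM in Lgr5+ cells, 89.8 FPKM in Lgr5- cells and 138.9 FPKM in Sox9+ cells. Set against the receptor-activated Smads of the same library, that was 1.32 times their sum in Lgr5+ cells, 1.90 times in Lgr5- cells and 3.37 times in Sox9+ cells. With Smad6 and Smad7 alone the ratio was 1.10, 1.51 and 2.66 in the Lgr5+, Lgr5- and Sox9+ libraries. The Lgr5+ library thus had the lowest ratio and the Sox9+ library the highest, with no replicate to set a spread. Within the inhibitors' sum, Smad7 was 49.4%, Smad6 33.7% and Bambi 16.8% in Lgr5+ cells. In Lgr5- cells Smad7 was 46.9%, Smad6 32.6% and Bambi 20.6%, and in Sox9+ cells Smad7 was 49.2%, Smad6 29.7% and Bambi 21.1%.

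**Figure D3:**
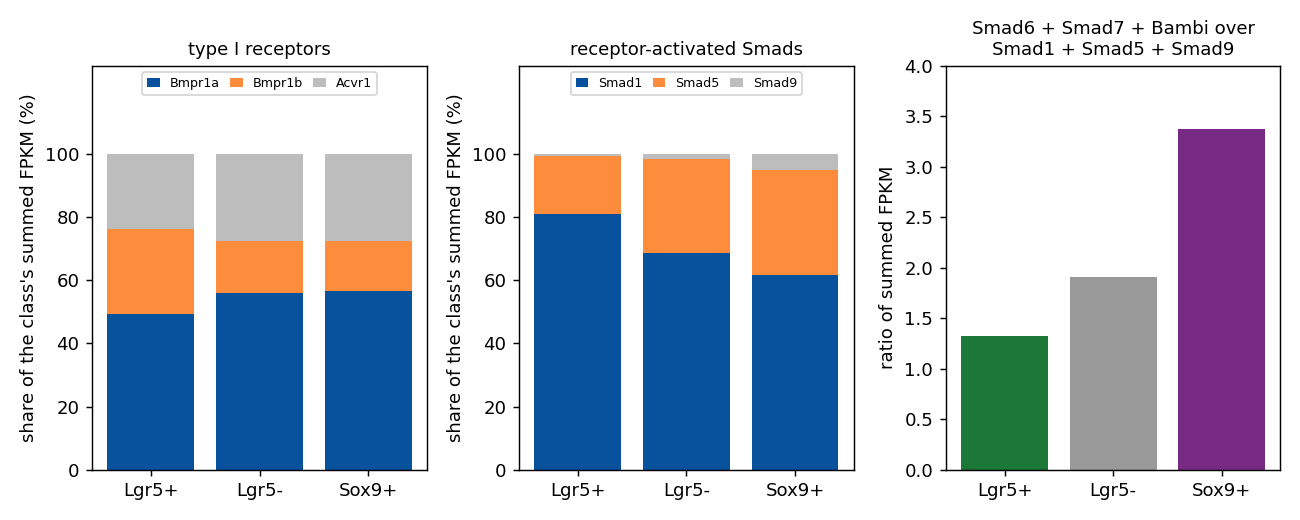
Share in percent of each gene in the summed FPKM of the type I receptors (left) and of the receptor-activated Smads (middle), and the ratio of the inhibitors' sum to that of the receptor-activated Smads (right), by library, with 1 library per bar and no error. Bmpr1b reaches 27% and Smad1 81.1% in the Lgr5+ library, where the ratio is lowest, at 1.32.

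Other measures differed between the same libraries. The summed level of 6 dissociation stress markers was 2136 FPKM in Lgr5+ cells, 2140 FPKM in Lgr5- cells and 5102 FPKM in Sox9+ cells, with none listed at 0. The heat shock genes Hspa1a and Hspa1b made up most of that difference, with Hspa1a at 20.2 FPKM in Lgr5+ cells, 16.1 FPKM in Lgr5- cells and 1116 FPKM in Sox9+ cells and Hspa1b at 16.3 FPKM in Lgr5+ cells, 12.6 FPKM in Lgr5- cells and 880.1 FPKM in Sox9+ cells. Hsp90aa1 was highest in the Sox9+ library too, at 115.6 FPKM in Lgr5+ cells, 119.2 FPKM in Lgr5- cells and 460.6 FPKM in Sox9+ cells. So was Egr1, at 603.2 FPKM in Lgr5+ cells, 669.5 FPKM in Lgr5- cells and 1221 FPKM in Sox9+ cells. Jun was instead highest in the Lgr5+ library (790.6 FPKM, against 531.1 FPKM in Sox9+ cells). Fos was level between Lgr5- (890.8 FPKM) and Sox9+ cells (893.1 FPKM). Of the 6 stress markers, 4 were 2-fold or more lower in Lgr5+ and 3 in Lgr5- cells than in Sox9+ cells. The higher levels of Smad6, Smad7 and Bambi in the Sox9+ library stood beside that difference, and its part in them was not tested. Endothelial cells also express Smad6 and Smad7, and 7 endothelial markers other than Erg, which interzone cells express too, summed to 8.41 FPKM in Lgr5+ cells, 12.4 FPKM in Lgr5- cells and 5.01 FPKM in Sox9+ cells. All 7 were lowest in the Sox9+ library, and none was at 0. They were weakly expressed, with 2.46 FPKM (Emcn in Lgr5- cells) as the highest value. On the FPKM + 1 scale none of them was 2-fold different in a pair with the Sox9+ library. That count rests on the added 1. With 0.1 FPKM added instead, 5 of 7 measured endothelial markers (Erg counted) were 2-fold or more higher in Lgr5- than in Sox9+ cells. With 0.5 FPKM added, 4 of 7 were. Of 10 cartilage markers, 7 were 2-fold or more lower in Lgr5+ and 9 in Lgr5- cells than in Sox9+ cells. In Lgr5+ over Sox9+ cells, Sox9 (1.30-fold), Sox5 (1.62-fold) and Sox6 (1.26-fold) went the other way, each under 2-fold. In Lgr5+ over Lgr5- cells, 3 of the 10 cartilage markers were 2-fold or more higher and 1 was lower. The sum of 8 chondrocyte maturation markers was 34.9 FPKM in Lgr5+ cells, 83 FPKM in Lgr5- cells and 170.8 FPKM in Sox9+ cells. Of these, 8 were 2-fold or more lower in Lgr5+ and 5 in Lgr5- cells than in Sox9+ cells. The sum of 4 proliferation markers was 112.8 FPKM in Lgr5+ cells, 93.2 FPKM in Lgr5- cells and 194.2 FPKM in Sox9+ cells. The muscle markers given above were highest in the Lgr5+ library, as Smad1 and Bmpr1b were. The sum of 6 tendon markers ran in the same order as Smad1, at 599.2 FPKM in Lgr5+ cells, 200.6 FPKM in Lgr5- cells and 92.4 FPKM in Sox9+ cells. Of the 6, 5 were 2-fold or more higher in Lgr5+ than in Lgr5- cells and 6 than in Sox9+ cells. In Lgr5- over Sox9+ cells 4 of the 6 were, and Fmod was lower, at 24.45 FPKM in Lgr5- and 28.57 FPKM in Sox9+ cells. The sum of 5 macrophage markers had that order too, at 57.8 FPKM in Lgr5+ cells, 34.7 FPKM in Lgr5- cells and 7.67 FPKM in Sox9+ cells, and no tendon or macrophage marker was at 0. Between Lgr5+ and Lgr5- cells, 2 of the 5 (C1qa and C1qb) were 2-fold or more higher. Csf1r (1.20-fold) and Cd68 (1.03-fold) were nearly level there, and Lyz2 went the other way, at 7.48 FPKM in Lgr5+ and 13.7 FPKM in Lgr5- cells. Of 6 epidermis markers, 4 were 2-fold or more higher in Lgr5+ than in Lgr5- cells, while Epcam and Krt18 were lower, each under 2-fold. The sum of 4 Schwann cell markers was 10.3 FPKM in Lgr5+ cells, 8.39 FPKM in Lgr5- cells and 29.4 FPKM in Sox9+ cells. The part of these cell mixtures, of maturation and of proliferation in the members' levels was not tested. Day, genotype and sorting gene cannot be told apart in the comparisons with the Sox9+ library.

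As a group, the 9 measured members had a median log2 ratio of 0.15 in the Lgr5+ over the Lgr5- library, beside 0.08 for all measured genes. With Smad9 included, the 10 members had a median of 0.05, which ranged from -0.10 with upper-quartile scaling to 0.09 with rescaling to a common sum. Against the Sox9+ library the 10 members had a median of -0.27 in the Lgr5+ library, beside 0.06 for all genes, with 8 of 10 below 0, as were 44.3% of all genes. In the Lgr5- over the Sox9+ library the median was -0.32, beside -0.01 for all genes, with 8 of 10 below 0, as were 50.5% of all genes. The number of members above 0 was 2 in each of these comparisons. It was 3 with a common sum, with or without ribosomal RNA and globins. Upper-quartile scaling also gave 3 in the Lgr5- over the Sox9+ library. Both comparisons use the same Sox9+ library. Rescaling to a common sum moved the median of all genes to 0.21 and 0.11 in them and the members' median to -0.12 and -0.21. It also moved the share of higher genes among all those 2-fold different to 64.8% and 52.3%, from 52.2% and 38.4% with FPKM as deposited. In the Lgr5+ over the Lgr5- library that share was 65.8%, and 52.5% with upper-quartile scaling.

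Ligands and secreted antagonists, which act before the receptors, are given by counts. Over all measured genes, 5.53% were 2-fold different in the Lgr5+ over Lgr5- pair, 8.29% in Lgr5+ over Sox9+ and 8.02% in Lgr5- over Sox9+. These shares go with the counts of this list and of those below. Between Lgr5+ and Lgr5- cells, 2 of 8 measured BMP ligands were 2-fold or more higher and 2 were lower, with a median log2 ratio of -0.66. Gdf5 (8.47-fold) and Bmp6 (2.99-fold) were the higher ones. Bmp3 (2.88-fold) and Bmp7 (2.35-fold), of which Bmp3 can oppose other BMPs, were the lower ones. In Lgr5+ over Sox9+ cells the median was -0.35, with Gdf5 10.1-fold higher, Bmp2, a strong inducer of cartilage and bone, 3.62-fold lower and Bmp5 3.05-fold lower. In Lgr5- over Sox9+ cells the median was 0.31, with Bmp3 2.42-fold higher, and Bmp6 (3.23-fold), Bmp2 (3.22-fold) and Bmp5 (2.05-fold) lower. The Bmp5 call ended under 3 other scalings.

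Of 13 measured secreted antagonists, 4 were 2-fold or more higher in Lgr5+ than in Lgr5- cells and 1 was lower, with a median of 0.76. The higher ones were Cer1 (11.7-fold), Chrdl2 (8.28-fold), Nog (2.73-fold) and Chrdl1 (2.13-fold, a call that ended with upper-quartile scaling), and the lower one was Sostdc1 (2.56-fold). In Lgr5+ over Sox9+ cells 4 were higher and 2 lower, with a median of 0.23, and Nbl1 (4.11-fold), Cer1 (3.41-fold), Chrd (3.34-fold) and Chrdl2 (2.35-fold) were the higher ones. The lower ones were Bmper (2.22-fold) and Grem1 (2.20-fold). In Lgr5- over Sox9+ cells 2 were higher and 5 lower, with a median of -0.25, with Nbl1 (5.54-fold) and Sostdc1 (2.09-fold) higher and Grem1 (3.87-fold), Chrdl2 (3.52-fold), Cer1 (3.43-fold), Chrdl1 (2.98-fold) and Nog (2.46-fold) lower. Noggin (Nog), which traps BMP ligands, stood at 62.8 FPKM in Lgr5+ cells, 22.4 FPKM in Lgr5- cells and 56.5 FPKM in Sox9+ cells.

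None of the 8 measured other receptors and co-receptors differed 2-fold in any of the 3 pairs, and most measured genes did not either. Of all measured genes, 5.53%, 8.29% and 8.02% did in the Lgr5+ over Lgr5-, Lgr5+ over Sox9+ and Lgr5- over Sox9+ pairs. In the same order of pairs, these receptors and co-receptors had medians of -0.11, -0.01 and 0.24. Among them, Rgma, a BMP co-receptor, had 5.97 FPKM in Lgr5+ cells, 5.14 FPKM in Lgr5- cells and 3.12 FPKM in Sox9+ cells. Of 21 measured intracellular regulators, 1 was 2-fold different between the Lgr5+ and Lgr5- libraries. It was Zeb2, a repressor that binds Smads, at 1.93 FPKM in Lgr5+ cells, against 5.57 FPKM in Lgr5- cells. None of the 21 was 2-fold different in Lgr5+ over Sox9+ cells. In Lgr5- over Sox9+ cells 20 were measured, and Zeb2 (2.97-fold) and the antiproliferative gene Tob2 (2.23-fold) were higher. Lemd3 (2.01-fold), an inner nuclear membrane protein that binds Smads, was lower. The Lemd3 call ended under 4 other scalings. The ubiquitin ligase Smurf2, which marks Smads and their receptors for breakdown, had 11.1 FPKM in Lgr5+ cells, 8.9 FPKM in Lgr5- cells and 11.5 FPKM in Sox9+ cells.

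Genes that BMP signalling is known to induce were read last. Id1, a target that Smad1 and Smad5 bind directly, stood at 1047 FPKM in Lgr5+ cells, 1117 FPKM in Lgr5- cells and 1568 FPKM in Sox9+ cells. Id3, its relative, stood at 2564 FPKM in Lgr5+ cells, 2276 FPKM in Lgr5- cells and 3571 FPKM in Sox9+ cells. Both were highest in the Sox9+ library, as Smad6, Smad7 and Bambi were, and differed by 1.57-fold at most. Of the other targets, Id2, Id4, Dlx5, Atoh8 and Hey1 were highest there too, but Msx1 and Msx2 were highest in the Lgr5- library. Msx1 stood at 67.3 FPKM in Lgr5+ cells, 116.9 FPKM in Lgr5- cells and 37.8 FPKM in Sox9+ cells. Msx2 stood at 17.4 FPKM in Lgr5+ cells, 28.4 FPKM in Lgr5- cells and 20.3 FPKM in Sox9+ cells. Of the 9 measured targets, 0 were 2-fold or more higher and 1 lower in Lgr5+ than in Lgr5- cells, with a median log2 ratio of -0.09. The lower one was Dlx5, a homeobox gene of cartilage and bone, at 3.97 FPKM in Lgr5+ cells, against 15.7 FPKM in Lgr5- cells. Against the Sox9+ library, 0 were higher and 2 lower in the Lgr5+ library, Dlx5 (5.66-fold) and Hey1 (2.99-fold), with a median of -0.60. In the Lgr5- over the Sox9+ library, Msx1 was 3.04-fold higher, Id4 2.68-fold lower and Hey1 3.20-fold lower, with a median of -0.61.

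**Figure D4:**
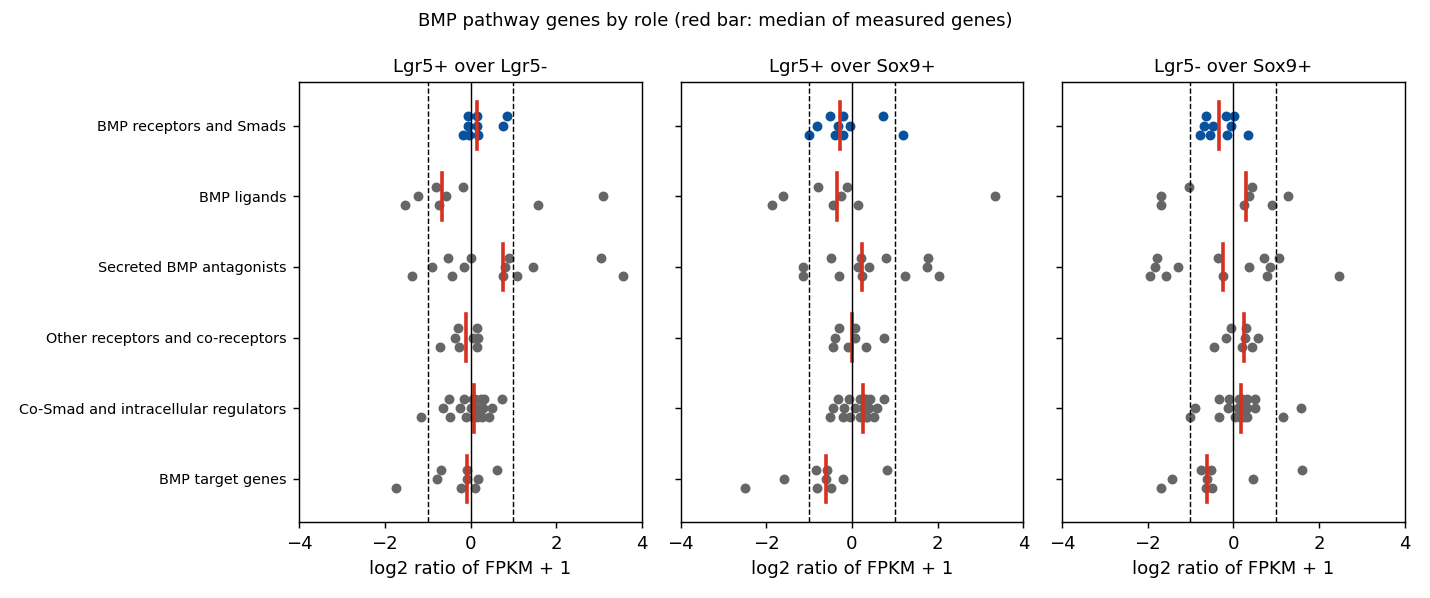
Log2 ratio of FPKM + 1 of each measured gene, by role in the BMP pathway, in the 3 pairs of libraries, with red bars at the medians and dashed lines at 2-fold. Ligands and secreted antagonists spread past the dashed lines on both sides, while the other receptors and co-receptors all stay between them, as most measured genes do.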

How the data were processed

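The deposited files hold 1 FPKM value per gene symbol and library, rounded to 2 decimals by the authors, per the file headers and the values. Per the labels' protocols, digit cells were sorted by GFP and a SMARTer ultra-low-input kit made cDNA from 10 ng of RNA. The submitters' processing notes name HISAT2, mm10 and GRCm38. How FPKM were computed, and with which annotation, is not given in the sources used here. FPKM are shares of a library, so abundant RNAs shift all others. In low values, no 1% bin of the ratio between libraries held over 1.75% of genes, so depth could not be recovered.

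Log2 ratios of FPKM + 1 were computed with Python 3.11.15, pandas 2.3.3 and numpy 2.4.6 in the 3 pairs, over all genes reaching 1 FPKM in either library of a pair, and 2-fold was the threshold. With 1 library per group no test was possible. Gene coordinates are from GENCODE M21. Symbols of spreadsheet dates (25) were not used by name. The text names all 10 members and, from each pathway list, the genes at least 2-fold different and a few with a direct role. The latter (Acvr2a, Acvr2b, Smad4, Rgma, Smurf2, Id1, Id2, Id3, Msx2, Atoh8 and the TGF-beta genes) were chosen after their values were seen. Members and lists were chosen with earlier results of these data known.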

Additional observations from a re-analysis of the deposited data

How the results depend on the processing

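The members' ratios and counts were recomputed under 9 alternatives: pseudocounts of 0.1 and 0.5 FPKM, no minimum, a minimum of 10 FPKM, and 5 other scalings. The minimum decides only which genes are measured. Over the 7 alternatives that change the ratios themselves, 195 of 203 member ratios kept their direction and their side of 2-fold, 6 ratios near 0 turned sign without being 2-fold different (Smad5, Smad6 and Bmpr1b, once to 3 times each), and none that was 2-fold different turned. The count of members 2-fold different between the Lgr5+ and Sox9+ libraries was 2, and fell to 1 with the minimum of 10 FPKM, where Smad9 was not measured, and to 1 with the common sum without ribosomal RNA and globins, where Smad9 had a log2 ratio of -0.96. Between the Lgr5- and Sox9+ libraries it was 0, and 1 with a pseudocount of 0.1 FPKM, where Smad9 reached -1.28. Smad9 is thus the gene whose call depends on these settings, and its log2 ratio between the Lgr5+ and Sox9+ libraries ranged from -1.80 to -0.96. Over all genes, the number 2-fold different was 688, 1036 and 1001 in the Lgr5+ over Lgr5-, Lgr5+ over Sox9+ and Lgr5- over Sox9+ pairs, against 1152, 1685 and 1679 with a pseudocount of 0.1 FPKM and 357, 530 and 549 with the minimum of 10 FPKM. The pathway lists were recomputed under the same alternatives, a check chosen after seeing the data. Of 40 calls of a list gene in a pair, 37 held under all 7, and the others (Bmp5 and Lemd3 in the Lgr5- over Sox9+ pair, Chrdl1 in the Lgr5+ over Lgr5- pair) fell under 2-fold in 3, 4 and 1 of them. Calls were also gained. With a pseudocount of 0.1 FPKM, secreted antagonists in Lgr5- over Sox9+ cells went from 2 to 4 higher, with 5 lower as before. In Lgr5+ over Lgr5- cells they went from 4 higher and 1 lower to 5 and 2. With quantile normalization the ratio of inhibitors to receptor-activated Smads was 1.31 in Lgr5+ cells, 1.92 in Lgr5- cells and 3.32 in Sox9+ cells. Likeness and motif counts were not recomputed. Upper-quartile scaling put the median of all genes at -0.07 in the Lgr5+ over Lgr5- pair, against 0.08. No paired analysis was possible because each group has 1 library and the labels give no replicate numbers.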

Other observations

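The neighbouring TGF-beta and activin branch, which uses its own receptors and Smads, was read with the same settings. Tgfbr2, the type II receptor of TGF-beta, stood at 19.8 FPKM in Lgr5+ cells, 33.6 FPKM in Lgr5- cells and 14.3 FPKM in Sox9+ cells. It was 2.26-fold higher in the Lgr5- than in the Sox9+ library, the 1 gene of 5 measured in that pair to differ 2-fold. Smad3, the Smad that TGF-beta and activin receptors activate, stood at 22.7 FPKM in Lgr5+ cells, 27.9 FPKM in Lgr5- cells and 18.7 FPKM in Sox9+ cells. Both were highest in the Lgr5- library. Tgfbr1, the type I receptor of TGF-beta, was lowest there, at 26.9 FPKM in Lgr5+ cells, 19.6 FPKM in Lgr5- cells and 25.4 FPKM in Sox9+ cells. Smad2, which the same receptors activate, was nearly level, at 8.67 FPKM in Lgr5+ cells, 8.02 FPKM in Lgr5- cells and 8.08 FPKM in Sox9+ cells. Acvr1b, the activin type I receptor, was low, at 0.53 FPKM in Lgr5+ cells, 0.92 FPKM in Lgr5- cells and 1.05 FPKM in Sox9+ cells. Acvr1c was listed at 0 in the Lgr5+ and Lgr5- libraries and at 0.05 FPKM in the Sox9+ library.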
